A study of Rattus norvegicus with 12 samples.

Results

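The sodium-potassium ATPase genes described here are the beta subunits Atp1b1, Atp1b2, Atp1b3 and Atp1b4 and the FXYD regulators Fxyd1, Fxyd5 and Fxyd6, measured in rat left atrium (LA) and left ventricle (LV) after a sham operation or a shunt. A probe set belonged to the group when its only gene symbol in the platform annotation, or an older synonym of it, was 1 of these 7 names. All 7 genes were found, among 14217 genes measured, with 9 probe sets, of which 8 passed the filter on low values. The study used male Sprague-Dawley rats of 225 to 275 g, with no age given. The operation joined aorta and vena cava so that the heart pumps extra blood volume, and tissue was taken 28 days later. The 4 groups were LA sham, LA shunt, LV sham and LV shunt, each with 3 arrays. Each array held RNA pooled from 2 tissues, left atrial appendages or left ventricular free walls, so animals cannot be told apart within a pool. The labels do not say whether atrial and ventricular pools came from the same rats.

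The sodium pump sets the sodium and potassium gradients on which the heartbeat rests, and it is the target of digitalis. Its alpha subunit splits ATP and moves the ions, its beta subunit is a glycoprotein that carries the alpha subunit to the membrane, and a small FXYD protein can bind the pair and tune its affinity for sodium. Phospholemman, the product of Fxyd1, restrains the pump in heart muscle until protein kinase A or C phosphorylates it. Atp1b4 departs from the family, since in placental mammals its product sits mainly in the inner nuclear membrane of muscle cells and is not known to serve the pump. The values below are transcript levels, and none is a measure of pump number or pump activity.

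Values are RMA summaries on a log2 scale, where a difference of 1 is a doubling. They range from 2.05 to 14.29 over the table, and levels of different probe sets are not comparable with each other. No 2 arrays were identical, and correlations between arrays of a group were 0.990 to 0.997. Marker genes matched the labelled tissues in both sham and shunt rats, since 5 of 6 atrial myocyte markers tested were higher in LA and 6 of 6 ventricular markers were lower there. The exception was Gja5, lower in LA by 0.63 in sham rats (adjusted p = 0.00018). Hexokinase has control probe sets at both ends of its transcript, and the excess of the 3′ over the 5′ signal, which grows when RNA is shortened, was 0.84 to 1.10 on the 6 sham arrays. This excess is called the hexokinase difference here. It was 1.44 on LA shunt array 3, 1.23 on LV shunt array 1 and 1.18 on LV shunt array 3, above every sham array. Leaving out all 3 leaves LA shunt with 2 arrays and LV shunt with 1, which is then assumed to vary like the other groups.

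Promoter sequences are shown for 3 genes: Atp1b4, which had the widest chamber difference of the group, and Atp1b3 and Fxyd5, whose shunt arrays lay above sham in both chambers. The shunt arrays of Fxyd6 did so too, but only 3 bases of its window lie before the annotated gene, and it is not shown. The sequences are from RefSeq, build GRCr8, read 5′ to 3′ on the gene's strand. RefSeq windows were matched for 6 of the 7 genes, all but Atp1b1. The windows are chrX:121952727-121952922 on the plus strand for Atp1b4, chr8:105821152-105821401 on the minus strand for Atp1b3 and chr1:95404723-95404972 on the minus strand for the first Fxyd5 start site. All lie before the first annotated base of the gene, which left 196 bases for Atp1b4 and 250 for each of the others. Capitals mark matches, on either strand, to the motifs listed after the sequences.
Atp1b4: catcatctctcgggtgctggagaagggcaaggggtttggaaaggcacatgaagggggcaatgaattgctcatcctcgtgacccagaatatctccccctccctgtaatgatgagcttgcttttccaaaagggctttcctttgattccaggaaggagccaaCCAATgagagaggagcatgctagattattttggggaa
Atp1b3: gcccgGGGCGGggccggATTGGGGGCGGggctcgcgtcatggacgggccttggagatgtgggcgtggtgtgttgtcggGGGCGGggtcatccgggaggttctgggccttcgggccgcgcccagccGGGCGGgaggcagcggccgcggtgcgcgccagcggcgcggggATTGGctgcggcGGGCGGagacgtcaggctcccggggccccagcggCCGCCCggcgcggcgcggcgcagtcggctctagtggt
Fxyd5: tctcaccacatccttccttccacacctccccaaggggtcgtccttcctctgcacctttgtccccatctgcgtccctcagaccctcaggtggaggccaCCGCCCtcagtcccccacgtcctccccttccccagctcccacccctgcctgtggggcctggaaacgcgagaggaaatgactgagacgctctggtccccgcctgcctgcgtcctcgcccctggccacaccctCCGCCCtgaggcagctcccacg

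Among core promoter elements, the search took the TATA box as TATAAA, the CCAAT box by the letters of its name and the GC box as GGGCGG. Among elements known from heart muscle genes, it took the M-CAT element as CATTCC, the GATA factor site as GATAA, and the MEF2 site and CArG box by their usual consensus. It also took the nuclear receptor half-site as AGGTCA and the AP-1 site as TGANTCA. The E-box, CANNTG, was counted but not capitalised. The Atp1b3 window was 79.6% G and C with 38 CpG pairs, and 98.8% of the 33465 rat promoter windows of 250 bases had a lower share. It held 6 GC boxes and 2 CCAAT boxes, 1 of them directly next to a GC box. The Fxyd5 window was 67.2% G and C with 12 CpG pairs and 2 GC boxes. The Atp1b4 window, counted over its full 250 bases, was 51.6% G and C with 4 CpG pairs, close to the medians of 51.2% and 5, and held 1 CCAAT box, 2 E-boxes and no match to the TATA box, GC box, MEF2, CArG, M-CAT or GATA letters. Over all windows, 30.5% held a GC box, 34% a CCAAT box, 65.5% an E-box, 12.9% the TATA letters, 2.96% the MEF2 consensus, 1.5% the CArG consensus, 12.1% the M-CAT letters, 23.5% GATAA, 14.1% AGGTCA and 6.34% TGANTCA. A match describes the letters only and is no evidence that a factor binds there.

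The first comparison asked how the chambers differ. In sham rats, 3 of the 7 genes passed the test: Atp1b4 and Atp1b1 were higher in LA and Fxyd6 was lower. In shunt rats these 3 genes passed again in the same directions, and Fxyd5 was higher in LA as well. By probe set that was 4 of 8 in sham and 5 of 8 in shunt. The chambers differ broadly: 47.2% of the 18625 probe sets tested passed in sham and 41.9% in shunt, so passing was common among all probe sets and the member count in sham is near that background.

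Atp1b4 stood far apart from the other members. On the LA sham arrays it was 8.15, 8.10 and 7.98, and on the LA shunt arrays 7.53, 7.85 and 8.20. On the LV sham arrays it was 2.37, 2.43 and 2.43, and on the LV shunt arrays 2.23, 2.46 and 2.42. Every atrial array lay more than 5 log2 units above every ventricular array, and the ventricular values were at the floor of the array, where 0.594% of probe sets in sham and 0.533% in shunt were lower. The probe set passed the filter, a mean of 4.01 over the 12 arrays, only through its atrial level. The LA minus LV difference was 5.67 ± 0.14 (SE) in sham (adjusted p = 6.48e-11, limma), a ratio of 50.8 against a ventricular signal that may be background alone. It was 5.49 ± 0.14 in shunt (adjusted p = 7.01e-11), and it ranked 9 by size among all probe sets tested in both. The atrial myocyte markers differed the same way, with a summed log2 level over 6 genes of 69.7 to 69.8 on the LA sham arrays and 40.5 to 42.3 on the LV sham arrays. In a bulk sample, fewer cells of a type and less RNA per cell cannot be told apart. The genes whose values over the 12 arrays were most like those of Atp1b4 were Myl4, the atrial light chain, and Stard10 and Mybphl, each with Pearson r of 0.998 over 2 chambers that set the correlation.

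**Figure D1:**
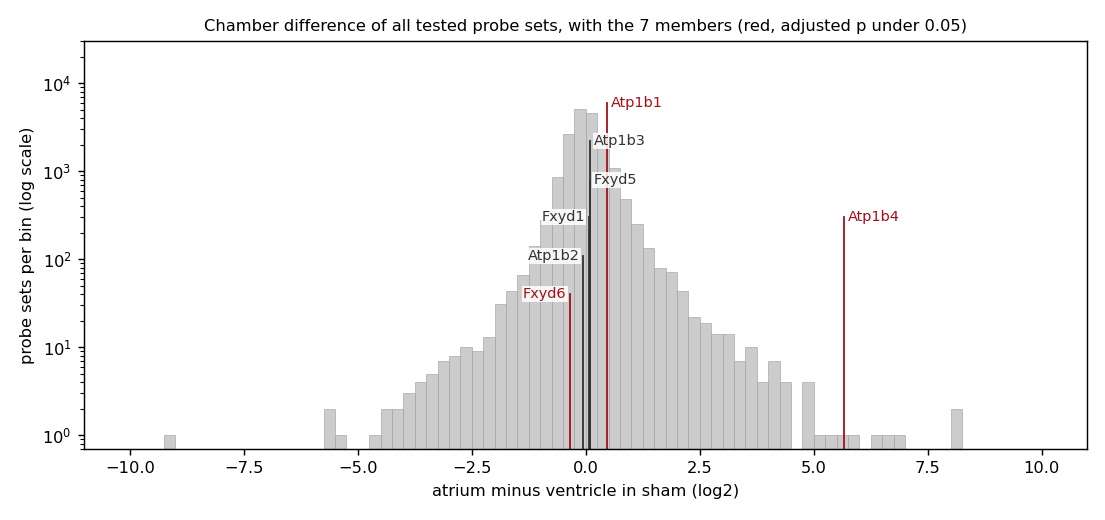
Number of probe sets (log scale) per bin of 0.25 of the log2 LA minus LV difference in sham rats, over the 18625 probe sets tested. Vertical lines mark the 7 genes by their probe set of highest mean, in red where the adjusted p was under 0.05; the height of a line has no meaning. Atp1b4 lies at 5.67 in the far right tail, while Atp1b1 (0.47) and Fxyd6 (-0.34) lie within the body of the distribution.

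Atp1b4 is X-linked, and its neighbours in the RefSeq gene order did not share its contrast. Tmem255a, next to it, was 2.30 in LA sham and 2.56 in LV sham, and Zbtb33 and Tex13c3 were also below the filter. Lamp2, a lysosomal membrane protein gene, was higher in LA by 0.35 in sham (adjusted p = 0.000697), and Cul4b by 0.29 (adjusted p = 0.0236).

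Atp1b1 encodes the main beta subunit of the heart pump. Its first probe set was 11.23, 11.32 and 11.28 in LA sham, 11.16, 11.25 and 11.08 in LA shunt, 10.74, 10.85 and 10.82 in LV sham and 10.75, 10.85 and 10.74 in LV shunt. All atrial arrays lay above all ventricular arrays. The difference was 0.47 ± 0.07 in sham (adjusted p = 0.000111), a ratio of 1.39, and 0.39 ± 0.07 in shunt (adjusted p = 0.000526). The second Atp1b1 probe set, at 10.53 to 10.57 in LA sham and 10.04 to 10.14 in LV sham, gave 0.47 ± 0.06 and 0.43 ± 0.06 (adjusted p = 4.33e-05 and 8.47e-05). The 2 probe sets therefore gave the same chamber ratio within their errors. The genes most like Atp1b1 over the 12 arrays were Cdh11, Pdgfra and Ccdc80 (r of 0.993, 0.993 and 0.992), and Pdgfra is a fibroblast marker. As for Atp1b4, the 2 chambers set these correlations. After the group means were subtracted, the nearest genes were instead Ubfd1, Herpud2 and Prkaa1 (r of 0.966, 0.954 and 0.952). In sham rats the fibroblast list had 7 of 9 members higher in LA and none lower, with a median difference of 0.60, beside Atp1b1 at 0.47, and its part in the Atp1b1 difference was not tested. The mesothelial list had 6 of 7 members higher and 1 lower in the same contrast, and the cardiomyocyte list 2 of 7 higher and 1 lower. The part of these lists in the Atp1b1 difference was not tested either.

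Fxyd6 encodes phosphohippolin, a pump regulator known mainly from brain and inner ear. It was 7.04, 6.94 and 6.93 in LA sham and 7.43, 7.23 and 7.28 in LV sham. In shunt rats it was 7.28, 7.43 and 7.09 in LA and 7.45, 7.62 and 7.72 in LV. Within each operation every ventricular array lay above every atrial one, although LA shunt array 2 reached the highest LV sham value. The LA minus LV difference was -0.34 ± 0.10 in sham (adjusted p = 0.0136) and -0.33 ± 0.10 in shunt (adjusted p = 0.0184). The sham call was lost without LV sham array 1 (-0.28, adjusted p = 0.0587). The shunt call was lost without LA shunt array 3 (-0.24, adjusted p = 0.0646), without LV shunt array 3 (-0.27, adjusted p = 0.0751) and without all 3 shunt arrays of high hexokinase difference (-0.26, adjusted p = 0.119), a fit with 1 LV shunt array. It was also lost with array weights (-0.25, adjusted p = 0.0557) and with only the groups compared (adjusted p = 0.061). Endothelial markers lay the same way in sham, 4 of 7 lower in LA and 1 higher, and their part was not tested.

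Fxyd5 differed between chambers in shunt rats by 0.39 ± 0.12 (adjusted p = 0.0258), although the arrays of the 2 groups overlapped. In sham rats its difference was 0.08 ± 0.12 (adjusted p = 0.605), and a further quantile normalization turned the sign of that value (-0.020). The shunt call was lost without LA shunt array 1 (0.28, adjusted p = 0.106), LA shunt array 2 (0.32, adjusted p = 0.0958), LV shunt array 1 (0.38, adjusted p = 0.0635) or LV shunt array 3 (0.36, adjusted p = 0.0755). It was also lost after a further quantile normalization (0.32, adjusted p = 0.0567) and with only the groups compared (adjusted p = 0.0853). The test of whether the difference between chambers itself changed with the shunt is given with the shunt effects.

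The other 3 genes did not pass between chambers. Atp1b3 was 0.09 ± 0.07 higher in LA in sham (adjusted p = 0.292) and 0.17 ± 0.07 in shunt (adjusted p = 0.0632), with every atrial array above every ventricular array within each operation. The shunt value was 0.21 without LA shunt array 3 (adjusted p = 0.0364) and 0.10 without LA shunt array 2 (adjusted p = 0.253), and it passed under 3 of 12 other alternatives. Fxyd1 was 11.20, 11.12 and 11.17 in LA sham and 11.08, 11.09 and 11.12 in LV sham, all LA arrays at or above the LV arrays, a difference of 0.07 ± 0.06 (adjusted p = 0.389), and 0.11 ± 0.06 in shunt (adjusted p = 0.174). Its 95% interval in sham was -0.07 to 0.21, so a chamber difference as wide as that of Atp1b1 (0.47) lay outside it. Atp1b2, first known as an adhesion molecule on glia, was 6.38 to 6.53 in LA sham and 6.32 to 6.60 in LV sham (-0.06 ± 0.11, adjusted p = 0.692).

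**Figure D2:**
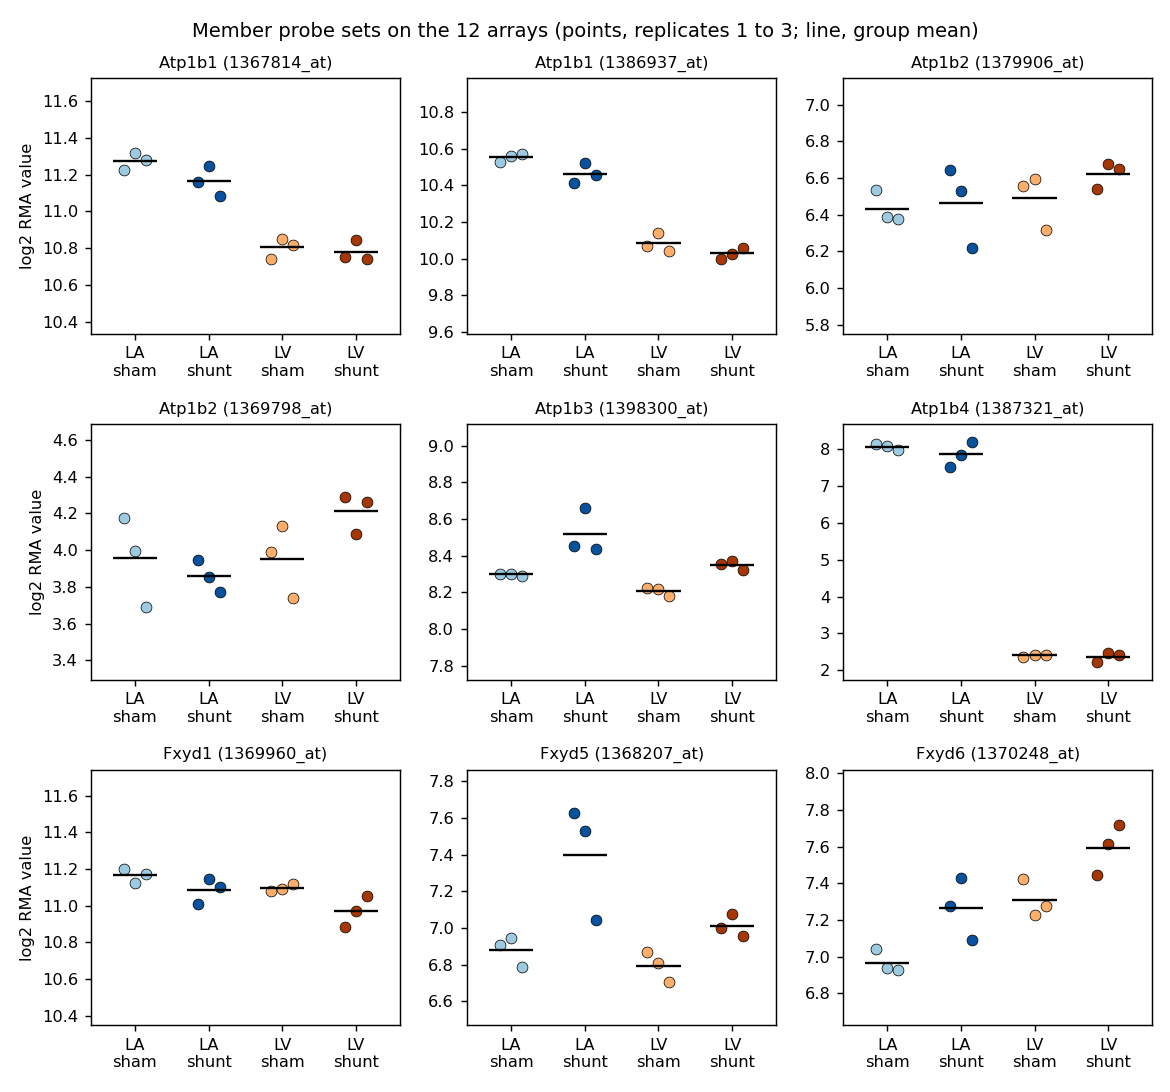
RMA values (log2) of the 9 probe sets on the 12 arrays, by group; points are replicates 1 to 3 from left to right, horizontal lines are group means, and each panel has its own vertical range. Atp1b4 is about 8 in LA and about 2.4 in LV, Atp1b1 is higher in LA, and Atp1b3, Fxyd5 and Fxyd6 have all shunt points above all sham points within each chamber.

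The second comparison asked what the shunt did in each chamber. None of the 8 probe sets passed in LA (3 had an unadjusted p under 0.05) and none in LV (1 did), by limma. Over all probe sets 1.3% passed in LA and 0.107% in LV, and 15.2% and 14.7% had an unadjusted p under 0.05. Averaged over both chambers, a contrast that uses all 12 arrays, Fxyd5 and Fxyd6 were higher in shunt rats and no member was lower. Over all probe sets 1.97% were higher in that contrast, and 4.8% passed in either direction.

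Arrays of the sham and shunt groups did not overlap for 4 of 8 probe sets in LA and for 4 of 8 in LV, against 20.7% and 20.8% of all probe sets. Atp1b3, Fxyd5 and Fxyd6 had every shunt array above every sham array in both chambers, 3 of 8 probe sets, and 2.38% of all probe sets did so. The remaining separated ones were the second Atp1b1 probe set in LA and Fxyd1 in LV, both lower in shunt.

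Fxyd5 encodes dysadherin, a pump regulator that is also linked to weaker adhesion between cells. It was 6.91, 6.94 and 6.79 in LA sham and 7.63, 7.53 and 7.04 in LA shunt. In LV it was 6.87, 6.81 and 6.71 in sham and 7.0, 7.08 and 6.96 in shunt. All shunt arrays lay above sham, with LA shunt arrays 1 and 2 far above and array 3 near the highest sham value. The LA effect was 0.52 ± 0.12 (adjusted p = 0.0707), a ratio of 1.43, and the LV effect 0.22 ± 0.12 (adjusted p = 0.45), so neither passed alone. The mean effect over both chambers was 0.37 ± 0.09 (adjusted p = 0.038), a ratio of 1.29, higher on 6 of 6 shunt arrays.

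The Fxyd5 call rested on a narrow margin. In fits that left out 1 array the mean effect stayed between 0.31 and 0.46, but it passed in 1 of 12, the fit without LA shunt array 3 (adjusted p = 0.00142), and the adjusted p of the other fits reached 0.0965. In LA alone, the fit without LA shunt array 3 gave 0.70 (adjusted p = 0.00167). With the hexokinase difference as a covariate, the LA effect was 0.52 (adjusted p = 0.00706) and the mean effect 0.42 (adjusted p = 0.00245). Without the 3 shunt arrays of high hexokinase difference the LA effect was 0.70 (adjusted p = 0.00352). The LA effect passed under 6 of 11 alternatives other than leaving out 1 array, with adjusted p from 0.0032 to 0.213, and the mean effect under 9 of 10, with adjusted p from 0.00245 to 0.0505.

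Fxyd6 had nearly equal shunt effects in both chambers, 0.30 ± 0.10 in LA (adjusted p = 0.171) and 0.28 ± 0.10 in LV (adjusted p = 0.22). The LA effect passed with array weights (0.39, adjusted p = 0.0286). Without the 3 shunt arrays of high hexokinase difference it was 0.39, in a fit with 1 LV shunt array. It was also 0.39 without LA shunt array 3 alone, the only LA array among them. In LA it passed in 0 of 12 fits that left out 1 array, with adjusted p of 0.063 or more. The mean over both chambers was 0.29 ± 0.07 (adjusted p = 0.0368), a ratio of 1.22, higher on 6 of 6 shunt arrays. Leaving out 1 array gave 0.25 to 0.33, and the call was kept in 3 of 12 fits, those without LA shunt array 3, LV sham array 1 or LV shunt array 1, with adjusted p from 0.0142 to 0.092. It passed under 8 of 10 other alternatives, and the exceptions were no filter on low values (adjusted p = 0.0506) and a block for replicate number (adjusted p = 0.0574).

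Atp1b3 encodes a widely expressed beta subunit. It was 8.30, 8.30 and 8.29 in LA sham and 8.45, 8.66 and 8.44 in LA shunt, and 8.22, 8.22 and 8.18 in LV sham and 8.35, 8.37 and 8.32 in LV shunt. The sham arrays lay close together and every shunt array was above them. The effect was 0.22 ± 0.07 in LA (adjusted p = 0.144) and 0.14 ± 0.07 in LV (adjusted p = 0.352). The mean effect of 0.18 ± 0.05 (adjusted p = 0.0516), a ratio of 1.13, fell just short of the threshold. It passed under 7 of 10 alternatives, over which it was 0.18 to 0.21 with adjusted p from 0.0167 to 0.0801, and in 1 of 12 fits that left out 1 array, the one without LA shunt array 3 (0.20, adjusted p = 0.034).

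Fxyd1 was 11.01, 11.15 and 11.10 in LA shunt and 10.89, 10.97 and 11.05 in LV shunt. In LV all shunt arrays lay below all sham arrays, with an effect of -0.13 ± 0.06 (adjusted p = 0.388), while in LA the groups overlapped (-0.08 ± 0.06, adjusted p = 0.596). The mean effect was -0.10 ± 0.05 (adjusted p = 0.203), and no alternative or fit that left out 1 array called it. For Atp1b1 the mean effects of its 2 probe sets were -0.07 ± 0.05 and -0.07 ± 0.04 (adjusted p = 0.412 and 0.317). On the second Atp1b1 probe set the LA shunt arrays, at 10.41, 10.52 and 10.46, lay just below the LA sham arrays (-0.09 ± 0.06, adjusted p = 0.496).

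Atp1b4 changed by -0.22 ± 0.14 in LA (adjusted p = 0.486), with LA shunt array 1 the lowest and array 3 the highest of the 6 atrial arrays. Its 95% interval was -0.51 to 0.08, narrow beside the chamber difference of 5.67. The effect was -0.39 without LA shunt array 3 (adjusted p = 0.0803) and -0.05 without LA shunt array 1 (adjusted p = 0.875). In LV the values stayed at the floor (-0.04, adjusted p = 0.921). Atp1b2 was 6.64, 6.53 and 6.22 in LA shunt and 6.54, 6.68 and 6.65 in LV shunt, with a mean effect of 0.08 ± 0.08 (adjusted p = 0.586). The second Atp1b2 probe set, at 3.69 to 4.18 in LA sham, 3.77 to 3.95 in LA shunt, 3.74 to 4.13 in LV sham and 4.09 to 4.29 in LV shunt, was under the filter and was not tested.

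**Figure D3:**
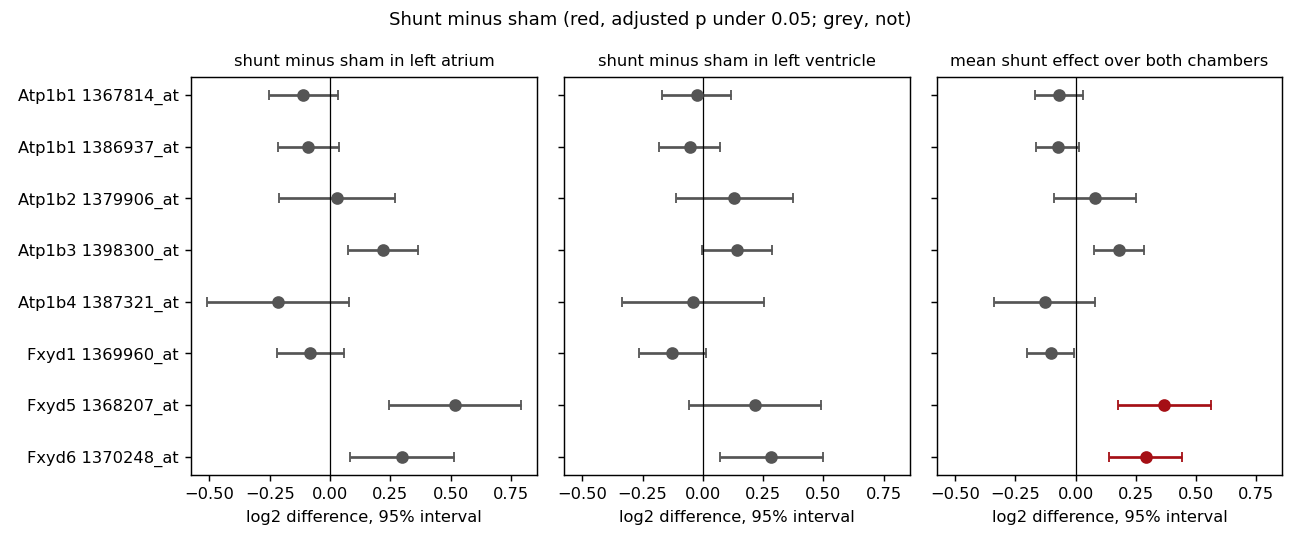
Shunt minus sham difference (log2) of the 8 probe sets tested, in LA, in LV and averaged over both chambers, as points with 95% intervals from limma. Only the mean effects of Fxyd5 (0.37) and Fxyd6 (0.29) are red, for an adjusted p under 0.05; some other intervals, such as those of Atp1b3 in LA and of Fxyd6 in each chamber, exclude 0 without passing the adjusted test.

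Whether a shunt effect differed between chambers was tested directly. None of the 8 probe sets passed and none had an unadjusted p under 0.05, and over all probe sets 0% passed by limma, with 1229 at an unadjusted p under 0.05. The widest member difference was that of Fxyd5, 0.30 ± 0.18 more in LA (adjusted p = 0.847), with a 95% interval of -0.08 to 0.69. It was 0.48 without LA shunt array 3 (adjusted p = 0.175) and 0.19 without LA shunt array 1 (adjusted p = 0.921). For Fxyd6 it was 0.01 ± 0.14 (adjusted p = 0.998), with an interval of -0.29 to 0.32, which leaves room for a difference as large as the effects themselves.

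Markers of other cells moved on the same arrays. Relative to the sham mean of the chamber, the macrophage list averaged 0.32, 0.34 and -0.25 on LA shunt arrays 1 to 3 and 0.16, 0.38 and 0.20 in LV. Fxyd5 was 0.745, 0.65 and 0.16 above on the former and 0.20, 0.28 and 0.16 on the latter, so the LA shunt array with the lowest Fxyd5 also had the lowest macrophage list and the highest hexokinase difference. Of 10 macrophage genes 9 were tested and 1, Lyz2, was higher in the mean effect (0.49, adjusted p = 0.0236), while Adgre1 was under the filter. Their summed log2 level was 58.9 to 60.1 in LA sham, 57.4 to 62.7 in LA shunt, 60.3 to 60.8 in LV sham and 62.0 to 63.9 in LV shunt.

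The nerve and Schwann list, with 3 of 9 genes tested, averaged 0.28, 0.43 and 0.22 on the LA shunt arrays and 0.20, 0.21 and 0.09 on the LV shunt arrays. In it Prph, a neuronal filament gene, was higher in the mean effect (0.77, adjusted p = 0.00139), whereas Sox10 was at 0.10 (adjusted p = 0.346), Mbp, a myelin gene, was at -0.16 (adjusted p = 0.364), and S100b, Gfap and Ngfr were under the filter. Its summed log2 level was 17.1 to 17.4 in LA sham, 17.9 to 18.5 in LA shunt, 13.4 to 14.0 in LV sham and 14.0 to 14.3 in LV shunt. Fibroblast markers averaged 0.18, 0.19 and -0.21 in LA shunt and -0.11, 0.26 and -0.08 in LV shunt, with none of 9 past the threshold in the mean effect by limma (1 at an unadjusted p under 0.05). Mesothelial markers averaged 0.00032, 0.013 and -0.53 on the LA shunt arrays and 0.27, 0.14 and 0.08 on the LV shunt arrays. Of 7 tested, Krt19, a keratin gene, was lower in LA shunt (-0.63, adjusted p = 0.0442) and Wt1, a transcription factor gene of the epicardium, was higher in the mean effect (0.36, adjusted p = 0.0176). The skeletal muscle list, with 2 of 7 genes tested, averaged 0.29, 0.21 and 0.26 on the LA shunt arrays and 0.21, 0.14 and 0.14 on the LV shunt arrays. In it Myh1, a fast myosin heavy chain gene, was higher in LA shunt (0.53, adjusted p = 0.00286) and in the mean effect (0.43, adjusted p = 0.000876). Tnni2 was at -0.02 (adjusted p = 0.901) in the mean effect. The Myh1 probe set had group means of 10.32 to 11.21, whereas Myh2, Myh4, Tnnt3 and Actn3 were under the filter, at 2.44 to 3.89. Whether the Myh1 probe set reads that transcript alone was not tested. The 2 red cell genes averaged 0.90, 0.70 and -0.27 on the LA shunt arrays, the order of Fxyd5, and neither passed in LA by limma (0 at an unadjusted p under 0.05). On the LV shunt arrays they averaged 0.27, -0.08 and 0.37, the reverse of the Fxyd5 order there. Ventricular myocyte markers averaged 0.39, 0.53 and 0.20 above sham on the LA shunt arrays, where Myl3 was higher (1.13, adjusted p = 0.0256). Of the 6 tested, 5 had an LA effect above 0, and Irx4 was at -0.32. On the LV shunt arrays the list averaged -0.03, -0.09 and -0.06. The part of these lists in the Fxyd5, Fxyd6 and Atp1b3 values was not tested.

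**Figure D4:**
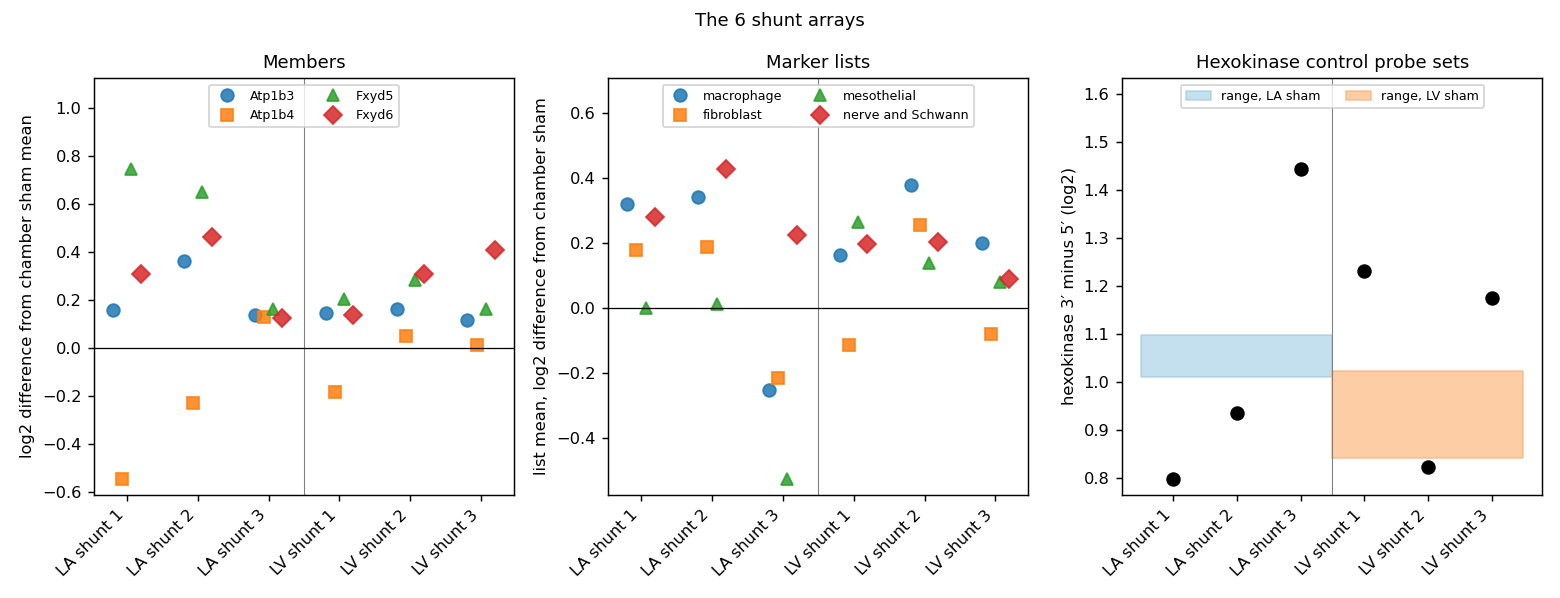
Left, log2 difference of 4 genes from the sham mean of their chamber on each of the 6 shunt arrays; middle, the same for the mean of 4 marker lists; right, the hexokinase 3′ minus 5′ difference (log2) with shaded ranges of the sham arrays. LA shunt array 3 has the highest hexokinase difference (1.44), the lowest macrophage, fibroblast and mesothelial lists, and the smallest Fxyd5 and Fxyd6 values of the 3 LA shunt arrays, while Atp1b4 is highest there.

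The members did not vary as a block. Over the 12 arrays, Atp1b3 and Fxyd5 had r = 0.87, and Atp1b1 and Atp1b4 had r = 0.96, which falls to -0.21 once the group means are subtracted. Among arrays of a group, the highest pair was Atp1b2 and Fxyd5 (r = 0.85) and the lowest Atp1b4 and Fxyd5 (r = -0.74). These are descriptions over 12 arrays that share RNA quality and processing. The gene most like Fxyd5 over the 12 arrays was Ptprr (r = 0.97), followed by Vldlr (0.95) and Actn4 (0.94). After the group means were subtracted it was Atp2c1, the Golgi calcium pump (r = 0.97). For Fxyd6 the nearest was Syne2 (r = 0.96), for Atp1b3 Snx12 (r = 0.92), for Fxyd1 Adcy5 (r = 0.91) and for Atp1b2 Sox10 (r = 0.88), a Schwann cell factor, followed by Ptpn6 and Cd68, which are leukocyte genes. Once the group means were subtracted, those nearest Atp1b2 were instead Ccdc3, Ptprr and R3hcc1 (r of 0.95, 0.94 and 0.93).

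Fxyd5, Fxyd7, Fxyd1 and Fxyd3 lie in 1 cluster in the RefSeq gene order, with Lgi4 between Fxyd1 and Fxyd3. Only Fxyd5 of these passed in the mean shunt effect. The others had mean effects of -0.17 for Fxyd7 (adjusted p = 0.326), -0.10 for Fxyd1 (adjusted p = 0.203), 0.15 for Lgi4 (adjusted p = 0.178) and -0.25 for Fxyd3 (adjusted p = 0.374), and differences between these genes were not tested. Fxyd2, the kidney regulator next to Fxyd6, was at -0.13 (adjusted p = 0.568).

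Of the other pump and FXYD genes analysed here, 5 were measured and 3 tested, and Atp1a4 and Fxyd4 were under the filter. None passed for the shunt in LA, in LV or in the mean, by limma, with 0, 1 and 0 at an unadjusted p under 0.05. Fxyd3 was lower in LA than LV in sham (-0.67 ± 0.22, adjusted p = 0.0284). That call was lost without any 1 of the 3 LA sham arrays, LV sham array 1 or LV sham array 2, with adjusted p up to 0.0827.

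The list of genes for pump anchoring and control was measured in full, 23 genes with 22 tested. Beside anchoring, kinase and phosphatase genes it holds others, such as Nedd4l and Glrx. Between chambers in sham rats 10 of the 22 were higher in LA and 3 lower, where 47.2% of all probe sets tested passed. Those higher included Ppp1r1a, a phosphatase inhibitor (1.61 ± 0.14, adjusted p = 2.83e-06), and Nedd4l, a ubiquitin ligase (0.72 ± 0.10, adjusted p = 8.8e-05). Ank2, the ankyrin that holds the pump and the sodium-calcium exchanger in place, was higher too (0.57 ± 0.09, adjusted p = 0.000343). A second Ank2 probe set lay the other way (-0.17 ± 0.07, adjusted p = 0.0732). Prkaca, the catalytic subunit of protein kinase A, was lower (-0.42 ± 0.08, adjusted p = 0.00106), as was Prkce (-0.82 ± 0.21, adjusted p = 0.00669).

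With the shunt, 1 of the 22 was higher and 2 were lower in the mean effect. Sik1, a salt-inducible kinase, was lower (-0.36 ± 0.07, adjusted p = 0.0156) and kept the call in all 12 fits that left out 1 array. Its second probe set was at -0.46 ± 0.22 (adjusted p = 0.242), and the call was lost without the 3 shunt arrays of high hexokinase difference or with the mean of its probe sets, with adjusted p up to 0.107. Prkaca was lower (-0.25 ± 0.06, adjusted p = 0.0322), kept in 5 of 12 such fits and lost without the 3 shunt arrays (-0.23, adjusted p = 0.0795). The spectrin gene Sptbn1 was higher (0.17 ± 0.04, adjusted p = 0.0268), but its other 3 probe sets gave 0.00052, 0.06 and -0.06 with adjusted p of 0.585 or more, and the mean of its probe sets gave 0.04. In LA alone Sptbn1 was the only one to pass (0.25 ± 0.05, adjusted p = 0.0478), and in none of 12 fits that left out 1 array.

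Of 23 genes for sodium entry and sodium-coupled carriers, 18 were measured and 12 tested. In LA shunt, the taurine carrier gene Slc6a6 was higher (0.70 ± 0.09, adjusted p = 0.00514) and the sodium channel subunit gene Scn4b lower (-1.18 ± 0.16, adjusted p = 0.00563), both in all 12 fits that left out 1 array. A second Slc6a6 probe set gave 0.34 ± 0.33 in LA (adjusted p = 0.673), and the mean of both probe sets 0.52 (adjusted p = 0.213). With only the groups compared neither gene passed (adjusted p = 0.0761 for Slc6a6 and 0.084 for Scn4b). In LV none passed by limma, with 4 at an unadjusted p under 0.05. In sham rats 2 of the 12 were higher in LA and 6 lower, where 47.2% of all probe sets tested passed. The exchanger gene Slc8a1, which uses the sodium gradient to expel calcium, was higher by 0.47 ± 0.07 (adjusted p = 0.000183), the same size as Atp1b1, but a second Slc8a1 probe set gave 0.14 ± 0.23 (adjusted p = 0.65).

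Of 28 other P-type ATPase genes, 26 were measured and 17 tested. Only Atp9a passed in the mean shunt effect (-0.31 ± 0.08, adjusted p = 0.04), kept in 1 of 12 fits that left out 1 array. It was lost without the 3 shunt arrays of high hexokinase difference (-0.16, adjusted p = 0.171) and with no filter on low values (adjusted p = 0.0529). In sham rats 4 of the 17 were higher in LA and 1 lower, led by Atp10a at 0.66 ± 0.13 (adjusted p = 0.00125). Over all probe sets tested, 47.2% passed in that contrast. The medians of the mean shunt effect were -0.06 for anchoring and control genes, -0.01 for sodium entry and -0.0044 for other P-type ATPases. The 3 other pump and FXYD genes tested had a median of -0.17, with 0 of them above 0. Over all probe sets tested the median was -0.01. For the 7 members by gene it was 0.08, the value of Atp1b2, and over their 8 probe sets it was 0.0061.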

How the data were processed

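RNA of 12 pools was hybridised to Affymetrix rat arrays from 10 µg of total RNA, per the labels' protocols. The authors' deposited values are RMA values on a log2 scale, per the submitters' processing notes; the RMA version and the arrays normalized together are not given in the sources used here. Each column was assigned to its sample through its label. Of 31099 probe sets 57 controls were dropped, and 18625 with a mean at or above the 40th percentile (log2 4.01) were tested. Symbols came from the platform annotation, updated by Entrez identifier to RefSeq GRCr8, which served for names and gene order: 20826 probe sets had 1 symbol (20758 matched, 68 kept as given), 436 several and 9780 none here. A gene was represented by its probe set of highest mean.

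limma 3.58.1 in R 4.3.3 (lmFit, eBayes) fitted 4 group means over all 12 arrays, with 8 residual and 3.68 prior degrees of freedom. It gave 6 contrasts, two-sided, with Benjamini-Hochberg adjustment over all probe sets tested and a threshold of 0.05. Errors are standard errors and intervals are at 95%. The fit was tested on simulated data. P-values measure the spread between pools, and 3 arrays per group limit the precision. Alternatives were other filters, normalizations, weights, priors, blocks, a hexokinase covariate and leaving out each array. The members and gene lists were chosen with earlier results of these data known. All members are named; of each list, genes past the threshold or the 2 of smallest p may be named, and the text gives part of these.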

Additional observations from a re-analysis of the deposited data

How the results depend on the processing

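The LA minus LV calls of Atp1b4 and Atp1b1 kept their direction and passed under every alternative that tested them and in all 12 fits that left out 1 array. Among the member values, 1035 refits kept direction and call, 22 gained a call, 35 lost one and 14 changed sign, none of them a called value. The counts of probe sets past the threshold moved as follows; the cause was not tested. For shunt minus sham in left atrium (243), array weights gave 910, a trended and robust prior 426, only the groups compared 43, the hexokinase covariate 758 and leaving out the 3 shunt arrays of highest hexokinase difference, chosen after seeing the data, 642; leaving out 1 array gave 66 to 469, with the highest without LA shunt array 3 and counts of 161 or less without each LA sham array, LA shunt arrays 1 or 2 or LV sham arrays 1 or 3. Member genes past the threshold there (0) were 1 with the 60th percentile filter, the prior, the replicate block and the covariate, 3 with array weights, 2 without the 3 arrays and 0 to 1 without 1 array.

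For shunt minus sham in left ventricle (20), the 60th percentile filter gave 82, quantile normalization 38, array weights 160, the prior 96, only the groups compared 10, the covariate 215, without the 3 arrays 45 and without 1 array 0 to 118, the highest without LA shunt array 3 and 0 without LV sham arrays 1 or 3 or LV shunt array 3. For the difference of the shunt effects (0), array weights gave 11, the prior and the covariate 1 each, without the 3 arrays 15 and without 1 array 0 to 19. For the mean shunt effect over both chambers (894), array weights gave 1664, the covariate 1791 and without 1 array 309 to 1190; its member genes (2) were 0 with no filter, 1 with the replicate block and 0 to 3 without 1 array. Member genes for atrium minus ventricle in shunt (4) were 2 with only the groups compared and 2 to 4 without 1 array.

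Uncalled values changed sign as follows. The Atp1b2 effect in LA was -0.062 to 0.15 without 1 array, its difference of effects -0.19 to 0.021, and its sham chamber difference 0.0091 with the covariate. The LV effect of Atp1b1 was 0.042 and that of Atp1b4 0.050 without the 3 arrays, and that of Atp1b4 -0.085 to 0.032 without 1 array. The Fxyd6 difference of effects was -0.043 with the covariate and -0.069 to 0.10 without 1 array. The Fxyd5 sham chamber difference was -0.020 after quantile normalization. The mean shunt effect of Fxyd3 was 0.078 without the 3 arrays.

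The labels give the groups the same replicate numbers but do not say that they pair samples. For that reason the numbers were not taken as pairs in the main fit. Correlations of deviations of same-numbered LA and LV arrays were 0.228, 0.26 and 0.072 in sham. In shunt they were -0.243, 0.444 and 0.445. Whether such pools shared rats cannot be told from these values. With a replicate block the counts were 208 in LA, 15 in LV and 868 for the mean effect; Fxyd5 passed in LA (0.52, adjusted p = 0.0448), Fxyd6 no longer passed in the mean effect (0.29, adjusted p = 0.0574), and no other member call changed. The filter at the 60th percentile leaves out Atp1b4, which gets no value there.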

Other observations

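Fxyd3, a FXYD gene known from epithelia, had the widest shunt effect of the FXYD genes tested, in LV, without passing the test. It was 5.78, 5.89 and 5.80 in LA sham and 6.44, 6.40 and 5.46 in LA shunt, and 6.50, 6.61 and 6.36 in LV sham and 5.55, 6.05 and 5.54 in LV shunt. In LV all shunt arrays lay below sham (-0.78 ± 0.22, adjusted p = 0.164, limma), and in LA shunt arrays 1 and 2 lay above sham and array 3 below it (0.27 ± 0.22, adjusted p = 0.615). The difference between the effects was 1.05 ± 0.32 (adjusted p = 0.515), and 1.37 without LA shunt array 3 (adjusted p = 0.0244). The 3 shunt arrays of highest hexokinase 3′ minus 5′ difference, LA shunt array 3 and LV shunt arrays 1 and 3, were the 3 with the lowest Fxyd3 values of all 12. Without them the LA effect was 0.60 (adjusted p = 0.00857), and the LV effect, which then rested on 1 shunt array assumed to vary like the other groups, was -0.44 (adjusted p = 0.142). With the hexokinase difference as a covariate the LV effect was -0.56 (adjusted p = 0.0488).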
